A study of Mus musculus with 10 samples.

Results

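Barcodes that hold RNA of Ptprc and of a few lymphocyte genes, but no counted RNA molecule of the CD3 chains or of Nkg7, are described here in 5 gene expression libraries from SW1 tumors. They were chosen by measured values: at least 200 genes, at most 10% mitochondrial (mt-) unique molecular identifiers (UMIs, 1 for each captured RNA molecule), at least 3 Ptprc UMIs, at least 3 UMIs over Prkch, Ikzf3, Ets1 and Ablim1 together, 0 UMIs of Cd3e, Cd3d, Cd3g and Nkg7, and at most 2 UMIs over C1qa, C1qb and C1qc. The rule found 110 of the 36440 barcodes that passed the gene and mt- limits, out of 41936 deposited. These are called members below. The members were 18 of 1660 kept barcodes in the control day 0 library, 42 of 19298 in control day 7, 25 of 12265 in L-fuc day 7, 12 of 1981 in control day 21 and 13 of 1236 in L-fuc day 21.

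SW1 is a mouse melanoma line, grown here under the skin of female C3H/HeJ mice of 4 to 6 weeks. After 10 days of growth by the labels, for which the study's methods give a longer time, the mice drank water with or without L-fuc, a dietary sugar, and CD45+ cells were sorted from pooled tumors at day 0, 7 or 21, for 1 gene expression and 1 T cell receptor library per condition. One protocol text gives 100 mM L-fuc and 5 mice per arm, while another gives 3 mice at day 0 and 6 per arm and a lower unit for the dose. Mice cannot be told apart within a pool, so there are no replicates, no test between conditions was possible, and every interval below covers counting error only.

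Ptprc encodes CD45, the phosphatase that all nucleated blood cells carry and on which the sort was made. T cells carry the CD3 chains beside their receptor, natural killer (NK) cells and cytotoxic T cells carry Nkg7, B cells carry CD79 and surface immunoglobulin, and plasma cells secrete immunoglobulin. Isolated nuclei give droplet libraries that are rich in the nuclear RNA Malat1 and in unspliced reads of long genes, and poor in mt- RNA and in mRNA for ribosomal proteins. The rule genes have different spans in the mm10 (GRCm38) annotation. Ptprc lies on chromosome 1 from 138062861 to 138175708 and spans 113 kb, and Prkch, a protein kinase C, lies on chromosome 12 from 73584796 to 73778185 and spans 193 kb. Ikzf3, a transcription factor of lymphocytes, lies on chromosome 11 from 98464902 to 98546031 (81.1 kb). Ets1, another such factor, lies on chromosome 9 from 32636221 to 32757820 (122 kb), and Ablim1, an actin-binding protein, lies on chromosome 19 from 57032733 to 57314919 (282 kb). The genes required to be at 0 are short: Cd3e, Cd3d and Cd3g span 10.9, 5.55 and 10.9 kb, and Nkg7 spans 1.18 kb.

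The T cell receptor library is a separate measurement that the rule did not use, and 4 of the 110 members had a productive receptor contig. All 4 were in the control day 7 library. Their CDR3 nucleotide sequences, the joined part of the receptor that differs between T cell clones, are shown because they are the only contigs of the receptor libraries among the members. Capitals mark the first codon, for the conserved cysteine, and the last codon, for the conserved phenylalanine.
TRB of member 7 (TRBV5, TRBJ2-1): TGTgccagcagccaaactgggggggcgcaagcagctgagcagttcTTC
TRB of member 13 (TRBV31, TRBJ2-3): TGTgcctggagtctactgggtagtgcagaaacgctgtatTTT
TRB of member 20 (TRBV10, TRBJ2-4): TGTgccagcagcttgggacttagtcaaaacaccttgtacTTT
TRA of member 27 (TRAV9-4, TRAJ22): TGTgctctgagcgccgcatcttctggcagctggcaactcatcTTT
Each of the 4 contigs was listed with 4 UMIs, against a median of 6 over the receptor-bearing barcodes of that library, and each member had 1 chain only. The sequences of members 7, 13 and 27 were found in no other barcode of any library. The sequence of member 20 was listed for 127 barcodes of control day 7 and for none elsewhere. Of the 125 of them that were kept, 107 held a Cd3 UMI and 18 did not. Member 20 had 6554 UMIs in the gene expression library and at least 10 UMIs of tumor genes, whereas members 7, 13 and 27 had 1502, 1430 and 1142 UMIs.

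Members had fewer receptors than barcodes that passed the same limits but held a Cd3 UMI, called Cd3-holding barcodes. The rule did not use receptors, but it separated these classes by Cd3, which T cells carry with the receptor, so a lower share in members goes with the choice of the classes. A receptor was found in control day 7 for 9.52% of members (95% exact binomial interval 2.66 to 22.6%) and for 58.4% (51.6 to 65.0%) of 219 Cd3-holding barcodes. In L-fuc day 7 it was found for 0 of 25 members, which by a limit of 3 counts allows a share of up to 12% (upper exact bound 13.7%), and for 59.8% (55.3 to 64.2%) of 488 Cd3-holding barcodes. In control day 0 it was 0 of 18 members against 81.2% of Cd3-holding barcodes, in control day 21 it was 0 of 12 against 74.4%, and in L-fuc day 21 it was 0 of 13 against 56.5%. The share was thus lower in members in 5 of 5 libraries, and the intervals did not overlap in any of them. Over the libraries of day 7, which alone had at least 20 barcodes of both classes, the mean difference was -54.4 percentage points, and the exact two-sided sign-flip permutation test gave p = 0.5, the smallest value that 2 libraries allow. Over all 5 libraries, a choice made after seeing the data, the mean difference was -64.2 points and the exact permutation p was 0.063, again the smallest possible. Since the direction goes with the choice of the classes, no conclusion is drawn from either p.

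Receptors were also looked for in other classes. Among barcodes with an Nkg7 UMI but no Cd3 UMI, called Nkg7-holding and open to cytotoxic T cells as well as NK cells, it was 5.41% (1.49 to 13.3%) of 74 in control day 7 and 0 of 219 in L-fuc day 7. Among macrophage barcodes, defined by at least 10 C1q UMIs and expected to lack a receptor, it was 0.198% of 1012 in control day 7 and 0 of 1477 in L-fuc day 7. The interval of the members of control day 7 thus overlapped that of Nkg7-holding barcodes and lay above that of macrophage barcodes. Of the 4 receptor-bearing members 1 shared its receptor with 126 other barcodes. In control day 7, 78 of the 940 kept receptor-bearing barcodes (8.30%) held no Cd3 UMI, against 8 of 1072 (0.746%) in L-fuc day 7. Depth moved with the receptor share of Cd3-holding barcodes: at 1000 to 3000 UMIs it was 33.7% of 83 in control day 7 and 32.1% of 84 in L-fuc day 7. In members of that depth it was 9.09% of 33 in control day 7 and 0 of 12 in L-fuc day 7, close to the shares at all depths. In Nkg7-holding barcodes of that depth it was 6.12% of 49 in control day 7.

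**Figure D1:**
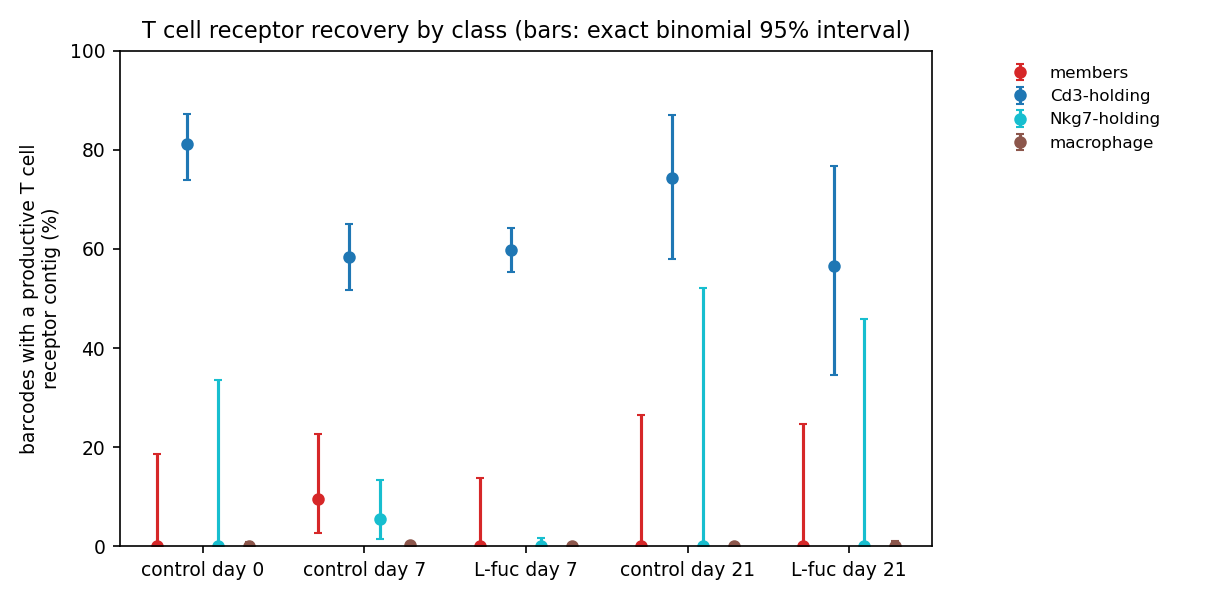
Share of barcodes with a productive T cell receptor contig (y axis, percent) in each library (x axis) for members, Cd3-holding, Nkg7-holding and macrophage barcodes; bars are exact binomial 95% intervals. Members sit at 0 in 4 libraries and at 9.52% in control day 7, below the Cd3-holding barcodes in every library.

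The members were not one kind of barcode. UMIs per member ranged from 1349 to 20347 with a median of 4630 in control day 0, from 978 to 10862 with a median of 1614 in control day 7, and from 617 to 31682 with a median of 1668 in L-fuc day 7. They ranged from 601 to 51508 with a median of 2054 in control day 21 and from 1330 to 70568 with a median of 23280 in L-fuc day 21. The name shallow held for most members of the libraries of day 7, where 36 of 42 and 18 of 25 members had under 4000 UMIs, and for 8 of 12 in control day 21, but for 7 of 18 in control day 0 and 2 of 13 in L-fuc day 21. Cd3-holding barcodes had median depths of 7106, 3850, 5584, 4700 and 8370 UMIs in the same order of libraries, deeper than members in 4 of 5. The medians over all kept barcodes were 4571, 4922.5, 2959, 4176 and 2295 UMIs. In both L-fuc libraries the median kept barcode was thus also under 4000 UMIs. Of the 110 members, 56 reached 10 UMIs for no lineage list, and these had a median of 1404 UMIs and a maximum of 3547. The limit is a fixed number of UMIs, which a shallow barcode reaches less easily, so the low depth of this group goes with the limit. The share of other barcodes of that depth that reach no list is not given here. The lineage lists used for this count were trimmed after seeing the values, and 16 members lay within 2 UMIs of the limit of 10.

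**Figure D2:**
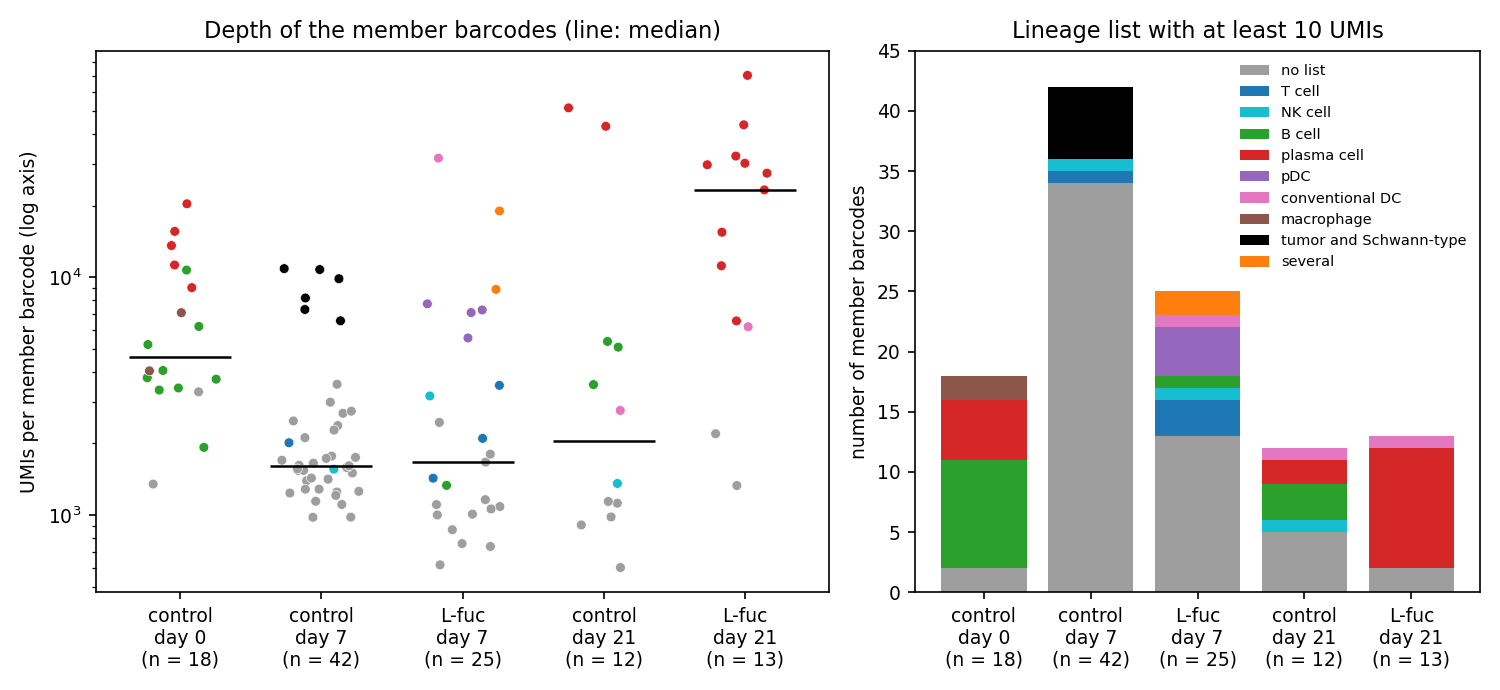
Left, UMIs of each member barcode (log axis) by library, 1 point per barcode with a line at the median; right, number of members by the lineage list of which they held at least 10 UMIs, in the same colors. Members with no list have at most 3547 UMIs, while those with at least 10 UMIs of the plasma cell list reach 70568.

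In control day 0 most members carried B cell genes. At least 10 UMIs of the B cell list were held by 14 of 18 members. In 9 of these, with 1924 to 10713 UMIs, Cd79a, a signalling chain of the B cell receptor, was found in 9 of 9 at 6 to 23 UMIs, and Ms4a1 (CD20) in 9 of 9 at 3 to 7 UMIs. The other 5 also held at least 10 UMIs of the plasma cell list, with Jchain, the joining chain of secreted immunoglobulin, at 1 to 30 UMIs and Mzb1, a chaperone of immunoglobulin assembly, at 8 to 12. These 5 kept Ms4a1 at 2 to 24 UMIs, and immunoglobulin genes took 0.604 to 2.97% of their UMIs. In the whole library 186 of the kept barcodes held 10 UMIs of the B cell list, so that the rule took 14 of 186. A further 2 members held macrophage genes, with Lyz2, a lysozyme, at 7 and 46 UMIs, and 2 held neither. Malat1 was at 45 and 424 UMIs in those 2, together 101012 CPM (UMIs per 1000000 UMIs of the summed total), against 6159 CPM in the 9 barcodes with B cell genes.

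In the libraries of day 21 the deep members carried plasma cell genes. In L-fuc day 21, 10 of 13 members held at least 10 UMIs of the plasma cell list, with 6547 to 70568 UMIs each. Mzb1 was found in 10 of 10 at 21 to 443 UMIs, Xbp1, a transcription factor of secretory cells, in 10 of 10 at 3 to 111 UMIs, and Sdc1 (CD138) in 8 of 10 at up to 12. Igkc, the kappa light chain constant gene, had 30 to 1358 UMIs. The heavy chain differed between these barcodes: Ighg1 was found in 5 of 10 at up to 1297 UMIs, Ighg2b in 6 of 10 at up to 1075, Ighg2c in 6 of 10 at up to 874, Igha in 5 of 10 at up to 418, and Ighm in 3 of 10 at up to 51. One of the 10, with 23280 UMIs, held 195 UMIs of the B cell list and 2.68% immunoglobulin, whereas the other 9 were between 23.5 and 72.7%. In control day 21, 2 of 12 members held at least 10 UMIs of the plasma cell list, with 43105 and 51508 UMIs and 28.3 and 63.9% immunoglobulin. A further 3 reached that limit for the B cell list only, with Mzb1 in 3 of 3 at 1 to 3 UMIs.

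The plasma cell genes also moved with the library as a whole. At least 10 UMIs of the plasma cell list were held by 15.9% of kept barcodes in L-fuc day 21 (196, of which 10 were members) and by 1.01% in control day 21 (20, of which 2 were members). Immunoglobulin genes took 12.4% of the UMIs of Cd3-holding barcodes and 5.79% of those of macrophage barcodes in L-fuc day 21, against 0.0280 and 0.529% in control day 21. These are sums in which deep barcodes weigh most. At 1000 to 3000 UMIs the shares in L-fuc day 21 were 0.549% in 6 Cd3-holding barcodes, 3.55% in 146 macrophage barcodes and 0.255% in 2 members. The part of free immunoglobulin RNA in the values of the members was not tested. Of the 4 lymphocyte genes of the rule, Ikzf3 was found in 11 of the 13 members of L-fuc day 21 and Prkch in 2, whereas Ets1 was the most frequent at day 7, in 37 of 42 members of control and 20 of 25 of L-fuc.

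The deeper members of day 7 carried other genes in each library, with no test between them. In control day 7, 6 members of 6554 to 10862 UMIs held at least 10 UMIs of the tumor and Schwann-type list. Sox10, a transcription factor of melanocytes and Schwann cells, was found in 6 of 6 at 1 to 9 UMIs, and Sparc, a matrix protein, in 6 of 6 at 7 to 33. At least 10 UMIs of this list were held by 52.2% of all kept barcodes of that library, although the sort was for CD45, and by 26.1% of those of L-fuc day 7, where 2 of 25 members reached it. A Ptprc UMI was found in 26.4% of the kept barcodes of control day 7, and in 36.0 to 48.9% of those of the other libraries. In L-fuc day 7, 4 members of 5550 to 7722 UMIs held plasmacytoid dendritic cell (pDC) genes: Siglech, a lectin of pDC, at 3 to 40 UMIs, Ccr9, a chemokine receptor, at 2 to 33, and Cox6a2, a cytochrome oxidase subunit, at 8 to 22. A list limit of 10 UMIs for these 3 genes was met by 61 kept barcodes in L-fuc day 7 and by 62 in control day 7, of which 4 and 0 were members. In L-fuc day 7 a barcode of 31682 UMIs held Xcr1, the chemokine receptor of conventional type 1 dendritic cells, at 8 UMIs, and 2 others held genes of several lineages at once, with 158 UMIs of fibroblast genes in one and 95 of tumor genes in the other.

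Most shallow members of day 7 reached the fixed limit of 10 UMIs for no lineage list, a limit that low depth itself makes harder to reach. Of the 42 members of control day 7, 34 reached 10 UMIs of no list, with 978 to 3547 UMIs each, and in L-fuc day 7 it was 13 of 25, with 617 to 2451 UMIs each. Beside them, 1 member of control day 7 and 3 of L-fuc day 7 reached 10 UMIs of T cell genes only, and 1 in each library reached 10 of NK cell genes only. In L-fuc day 7 a member of 1332 UMIs held 13 UMIs of B cell genes, among them 4 of Ms4a1, and the member with NK cell genes held 29 of them. Thinned to 500 UMIs per barcode, 55.0% of the members of control day 7 and 57.9% of those of L-fuc day 7 were expected to hold a UMI of the 24 T cell genes. The same shares were 74.7 and 83.3% in Cd3-holding barcodes and 7.98 and 6.88% in macrophage barcodes, which should lack these genes. For the 11 NK cell genes the shares were 37.6 and 41.3% in members, 30.1 and 44.1% in Cd3-holding barcodes, and 3.81 and 4.76% in macrophage barcodes. No barcode of these classes was left out at 500 UMIs. Unthinned, 92.9 and 88.0% of members held a UMI of the T cell list, at median depths of 1614 and 1668 UMIs, and 47.7 and 33.0% of macrophage barcodes did, at 5220 and 2869 UMIs. Members were thus above macrophage barcodes for T cell and NK cell genes, but other lists were found too, the B cell list at a share near that of the T cell list in both libraries: at 500 UMIs, 50.9% of members of control day 7 and 15.4% of those of L-fuc day 7 were expected to hold a UMI of the tumor list, 37.3 and 26.2% one of the macrophage list, and 57.1 and 54.7% one of the B cell list, which includes Cd74. In macrophage barcodes the tumor list was at 32.9 and 12.8%.

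The genes behind these shares were few UMIs each. Lck, the kinase that CD45 acts on in T cells, was found in 11 of 42 members of control day 7 (113 CPM) and in 6 of 25 of L-fuc day 7 (96.5 CPM), against 272 and 378 CPM in Cd3-holding barcodes. Il7r, the interleukin 7 receptor, was at 173 and 149 CPM in members of control and L-fuc day 7, against 141 and 174 CPM in Cd3-holding barcodes. The receptor constant genes were lower. Trac was found in 3 of 42 and 2 of 25 members (34.7 and 17.5 CPM, against 109 and 222 CPM), and Trbc2 in 0 of 42 and 2 of 25, against 82.1 and 155 CPM. Since the rule required 0 Cd3 UMIs, low T cell genes in members are in part what the rule chose. Thinned to the members' median depth, 18.9% of 196 Cd3-holding barcodes of control day 7 and 12.7% of 455 of L-fuc day 7 were expected to hold no Cd3 UMI, with 23 and 33 shallower barcodes left out. Whether they would still meet the other limits of the rule was not tested.

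Malat1, a nuclear RNA of chromosome 19, was higher in members than in Cd3-holding barcodes in every library. Members of control day 7 were at 16483 CPM (Poisson interval 15751 to 17241) and the Cd3-holding barcodes at 9705 CPM (9529 to 9885). In L-fuc day 7 they were at 17457 CPM (16699 to 18241) and 7054 CPM (6972 to 7136). In control day 0 the levels of members and Cd3-holding barcodes were 8051 and 3888 CPM, where 1 member gave 424 of the 1030 Malat1 UMIs and the medians over barcodes were 4520 and 3455 CPM. In control day 21 they were 13308 and 11369 CPM, and in L-fuc day 21 they were 14697 and 7130 CPM. The spread between members was wide. Single members lay between 3683 and 56668 CPM in control day 7, with a median of 16516 CPM, and between 1813 and 65000 CPM in L-fuc day 7, with a median of 27778 CPM.

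Genes of long span also took more UMIs in members at day 7. The rule asks for UMIs of mostly long genes and for 0 UMIs of short ones. This share is therefore not independent of the rule, even with the rule genes left out, and is a description. Genes of at least 100 kb, without the rule genes and mt- genes, took 8.39% of the UMIs of members and 6.39% of those of Cd3-holding barcodes in control day 7, and 6.51 and 4.53% in L-fuc day 7. The mean difference over both libraries was 1.99 points. In Nkg7-holding barcodes the shares were 7.00 and 4.65%, and in macrophage barcodes 4.59 and 3.52%. In the other libraries the summed difference was small or turned. In control day 21, 2 of 12 members had 51508 and 43105 of the 117450 UMIs of members. The shares of members and Cd3-holding barcodes were 3.55 and 3.30% in control day 0, 2.78 and 6.45% in control day 21, and 3.23 and 3.98% in L-fuc day 21, where immunoglobulin genes took 38.6 and 33.9% of the UMIs of members at day 21. The median over members was 11.9% in control day 21 and 3.62% in L-fuc day 21. At 1000 to 3000 UMIs the shares of members and Cd3-holding barcodes were 13.3 and 12.6% in control day 21 (4 and 13 barcodes). At that depth they were 9.99 and 11.9% in L-fuc day 21 (2 and 6 barcodes), and 8.9 and 5.3% in control day 0 (2 and 7 barcodes). Whether reads in introns were counted was not stated in the sources used here, so that a share in long genes cannot be read as unspliced RNA.

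At day 7 ribosomal protein genes and mt- genes did not move together. Ribosomal protein genes took 12.6% of the UMIs of members and 18.6% of those of Cd3-holding barcodes in control day 7, and 16.4 and 22.5% in L-fuc day 7. The mt- genes, on which the rule set a limit of 10%, took 3.18% in members and 2.55% in Cd3-holding barcodes of control day 7. In L-fuc day 7 they took 2.14 and 1.84%. In control day 0 both shares were lower in members, ribosomal protein genes at 27.23 and 29.98% and mt- genes at 0.4885 and 0.5028%. Both were also lower in control day 21, at 13.65 and 16.65% and at 0.9783 and 1.831%. In L-fuc day 21 ribosomal protein genes were lower (9.899 and 17.85%) and mt- genes higher (1.317 and 1.227%). Of the 4 signs of nuclei named above, members at day 7 had higher Malat1 and a lower share of ribosomal protein genes than Cd3-holding barcodes. Their share of mt- genes was higher, not lower. Unspliced reads of long genes were not measured. The share of long genes was higher in members, but it is not independent of the rule and cannot be read as unspliced RNA. These comparisons rest on 1 library per condition and on barcodes of different depth.

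Depth moved with several of these measures, though not in every library. Across members of a library, Malat1 fell with UMIs per barcode, with a Spearman rho of -0.228 in control day 7 (42 barcodes) and -0.762 in L-fuc day 7 (25 barcodes), and of -0.521, -0.804 and -0.736 in control day 0, control day 21 and L-fuc day 21. The share of long genes had a rho of 0.0122 in control day 7 and -0.425 in L-fuc day 7. These barcodes share a library and differ in cell type, and the values are descriptions. Barcodes of 1000 to 3000 UMIs were therefore compared, a range chosen after seeing the data.

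**Figure D3:**
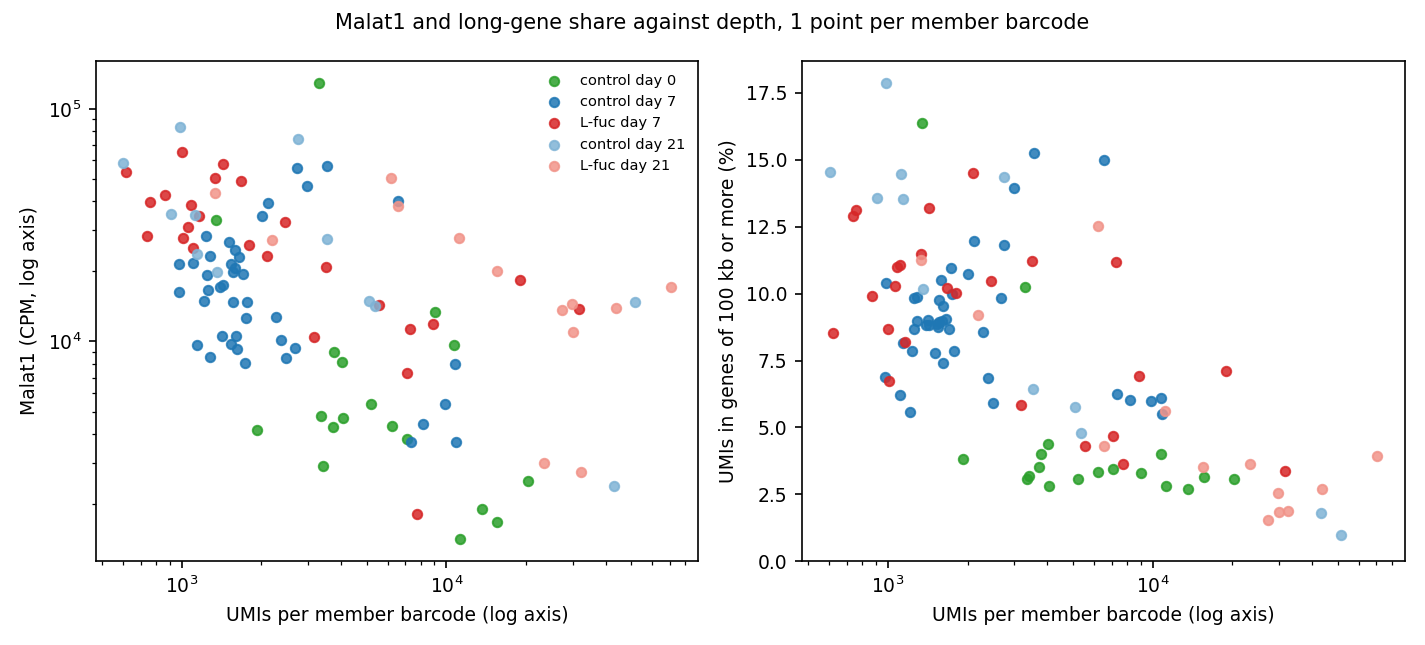
Malat1 (left, CPM on a log axis) and the share of UMIs in genes of at least 100 kb (right, percent) against UMIs per barcode (log axis), 1 point per member, colored by library. Most members of few UMIs lie high on both measures, though some of control day 0 do not, and the deepest members lie low in the share of long genes.

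Within this range the differences from Cd3-holding barcodes in Malat1 and in long genes were larger in L-fuc day 7 and smaller in control day 7. For control day 7, 33 members had Malat1 at 20581 CPM, against 15247 CPM in 83 Cd3-holding barcodes and 23616 CPM in the 5703 other kept barcodes of that depth. Their share of long genes was 9.24%, against 8.43% and 7.21%, and that of ribosomal protein genes 8.73%, against 11.1 and 12.3%. The mt- share was 3.27% in members and 2.58% in Cd3-holding barcodes, and 3.27% in the others. In L-fuc day 7, 12 members had Malat1 at 37444 CPM, against 17323 CPM in 84 Cd3-holding barcodes and 10058 CPM in 3445 others. Their share of long genes was 10.8%, against 6.80 and 3.77%, that of ribosomal protein genes 5.08%, against 17.3 and 16.6%, and that of mt- genes 4.23%, against 2.65 and 1.73%. At this depth the members of control day 7 were below the other kept barcodes in the summed level of Malat1 but above them in the median over barcodes, at 17217 against 10533 CPM, while in L-fuc day 7 the Malat1 level of the 12 members lay above that of every class compared.

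**Figure D4:**
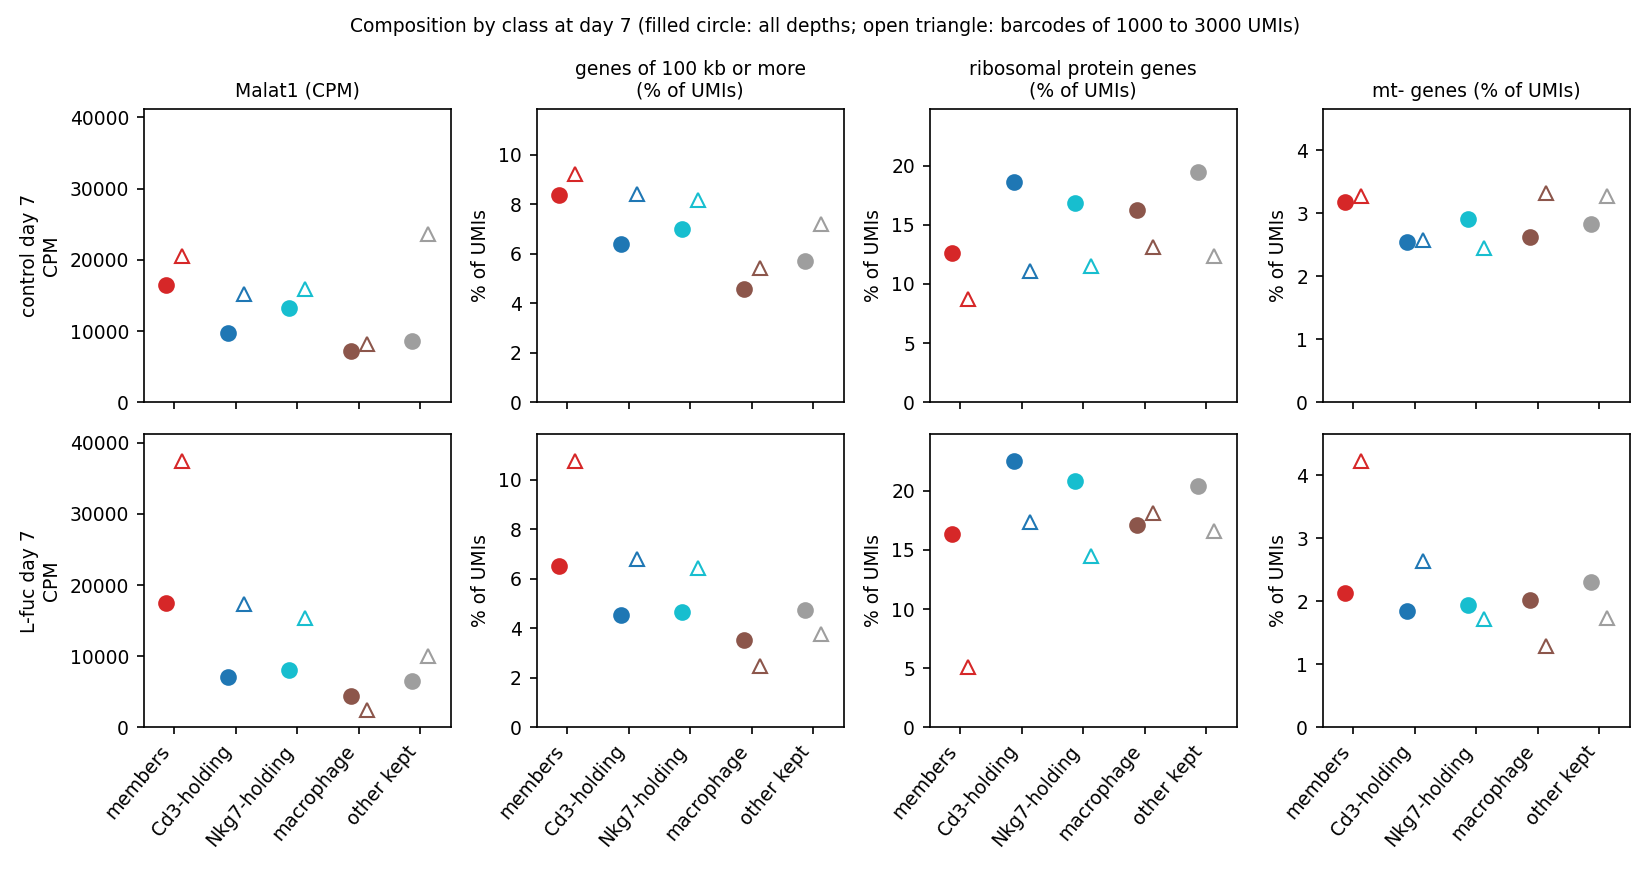
Malat1 level (CPM) and shares of UMIs in long, ribosomal protein and mt- genes (percent) for 5 classes of barcodes in the libraries of day 7, with filled circles for all depths and open triangles for barcodes of 1000 to 3000 UMIs. Members at that depth reach 37444 CPM of Malat1 in L-fuc day 7 and 20581 CPM in control day 7, and their mt- share is not below that of Cd3-holding barcodes.

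Gm42418, a transcript on chromosome 17 from 39846958 to 39848788 that overlaps ribosomal RNA, took 11.7% of the UMIs of members in control day 7 and 9.49% in L-fuc day 7. In single members it ranged from 2.05 to 25.2% and from 2.76 to 27.1%. At 1000 to 3000 UMIs it took 18.2% in members and 15.1% in Cd3-holding barcodes of control day 7, and 16.2 and 11.8% in L-fuc day 7, where the other kept barcodes of that depth were at 15.0%. Over all depths it was 1.11% in members of control day 21 and 1.77% in those of L-fuc day 21, and at 1000 to 3000 UMIs 4.90% in 4 and 7.49% in 2 members. The high share was found in shallow barcodes of day 7 of each class given.

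Gene by gene, members were compared with Cd3-holding barcodes in the libraries of day 7, on log2 ratios of CPM with a pseudocount of 1 UMI. Of 10137 genes with at least 30 UMIs, 977 (9.64%) were at least 2-fold higher in members in both libraries, of which 39 had no member UMI in 1 of them, and 127 (1.25%) were at least 2-fold lower. The members hold far fewer UMIs than the other class, so that the pseudocount alone raises genes of few UMIs: among genes with at least 10 member UMIs in each library, a limit added after seeing the data, 53 of 1455 (3.64%) were higher and 16 (1.1%) lower. With a pseudocount in proportion to the class totals, also added, the balance turned to 318 higher and 624 lower, so that no direction is read from these counts. The gene lists are given as counts beside these backgrounds, since the rule used the same contrast.

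Nuclear long noncoding RNAs had a positive and mRNAs of the cytoplasm a negative median ratio, with few calls. Of 7 nuclear RNAs tested, 2 were called higher (Mir142hg and Ftx, at 1 to 2 member UMIs per library) and 0 lower, and the median log2 ratio was 1.04, against 0.41 over all genes tested. With 10 member UMIs in each library 0 of 5 were called, and at 1000 to 3000 UMIs 2 of 5 were higher, Neat1 and Kcnq1ot1, beside a background of 2.8%. Neat1, the RNA of paraspeckles, was at 667 CPM in members and 217 CPM in Cd3-holding barcodes of control day 7, and at 254 and 196 CPM in L-fuc day 7. Xist, the RNA of the inactive X chromosome, was at 1820 and 966 CPM in control day 7 and at 763 and 596 CPM in L-fuc day 7. Kcnq1ot1, an imprinted antisense RNA, was at 277 and 173 CPM, and at 281 and 56.4 CPM. Of the 13 abundant cytoplasmic mRNAs 0 were called in either direction, with a median of -0.49. Tmsb4x, an actin-binding peptide, was at 2487 CPM in members and 6152 CPM in Cd3-holding barcodes of control day 7, and at 7874 and 11814 CPM in L-fuc day 7, whereas Fth1, a ferritin chain, was higher in members, at 7054 and 5473 CPM and at 4735 and 3805 CPM. The 89 ribosomal protein genes had a median of -0.47, with 1 called higher and 0 lower, and at 1000 to 3000 UMIs 78 of them had a median of -0.98, with 0 higher and 3 lower. The 12 chromatin and splicing genes had a median of 0.19 with 0 calls. Srrm2, a splicing factor, was at 997 and 701 CPM in control day 7 and at 666 and 438 CPM in L-fuc day 7.

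Genes of T cells and of their activation made up most of the lower calls among the lists. Of 12 effector and checkpoint genes, 9 were called lower and 0 higher: Pdcd1, Ctla4, Tigit, Gzmk, Ifng, Icos, Tnfrsf4, Tnfrsf9 and Cxcr6, with a list median of -2.17. None of the 12 had 10 member UMIs in each library, and of the T cell list 2 did, of which Lck was lower. Pdcd1, the PD-1 receptor, was found in 2 of 42 and 1 of 25 members (17.3 and 8.77 CPM), against 141 and 179 CPM in Cd3-holding barcodes. Of 24 T cell genes, 10 were called lower, Trac, Trbc2, Cd8a, Lck, Lat, Cd247, Cd2, Cd28, Thy1 and Themis, and 0 higher. Of 10 NK cell genes tested, 1 was lower (Xcl1) and 0 higher. Of 8 genes of resting and naive lymphocytes 1 was lower (Ccr7), with a median of 0.15. Of 20 long lymphocyte genes 2 were lower, Tox and Ikzf2, and 0 higher, with a median of 0.24. That is below the 0.41 of all genes and the 0.70 of all 1219 genes of at least 100 kb that were tested. With 10 member UMIs in each library the order against all genes turned, at 0.42 for 8 long lymphocyte genes and 0.15 for all genes. At 1000 to 3000 UMIs it was 0.11 against 0.21. Of the 1219 genes of at least 100 kb, 180 were higher and 5 lower. With 10 member UMIs in each library it was 15 and 0 of 155, with a median of 0.65. The backgrounds of higher genes were 9.64 and 3.64%. Dock2, a guanine nucleotide exchange factor of blood cells, was at 182 and 179 CPM in control day 7, and at 281 and 182 CPM in L-fuc day 7. Among 8 genes that act with CD45 in signalling, Pag1, a membrane adaptor for the kinase Csk, was higher (104 and 35.5 CPM, and 78.9 and 43.2 CPM) and Lck was lower. At 1000 to 3000 UMIs the effector list fell to 2 calls of 10 genes tested (Pdcd1 and Gzmk) and the T cell list to 4 of 23 (Trac, Trbc2, Cd8a and Lat), beside backgrounds of 2.8% higher and 1.44% lower over 2426 genes.

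The remaining lists of marker genes had 0 to 2 calls in a direction, except that of regulatory T cells. The backgrounds were 9.64% higher and 1.25% lower, and few genes of these lists had 10 member UMIs in each library. Of the B cell list 4 genes were tested and Cd79b was higher. Of the 6 plasma cell genes tested Sdc1 was higher, of the 7 pDC genes Tcf4 was higher, of the 5 dendritic cell genes tested Zbtb46 was higher and Ccr7 lower, and of the 8 innate lymphoid genes tested Kit was higher. Sox10 and Mitf were higher among 6 tumor genes, Col3a1 among 6 fibroblast genes, Pecam1 as the 1 endothelial gene tested, and Tpsb2 among 7 mast cell genes. Lyz2 was among the 2 of 7 macrophage genes that were lower. S100a9 was lower among 4 neutrophil genes, and Ikzf2, Ctla4 and Tnfrsf18 among 5 genes of regulatory T cells. There were 0 calls among 4 monocyte, 5 red cell, 10 cell cycle and 9 immediate early and stress genes. Tcf4, a factor of the pDC lineage, was at 199 and 68.6 CPM in control day 7 and at 281 and 38.2 CPM in L-fuc day 7.

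The genes at the ends of the ranking differed in how many barcodes carried them. Among the 10 highest, Clec3b, C3, Fstl1, Dcn and Pi16, all known from fibroblasts, came in L-fuc day 7 from 1 barcode each, with 43, 80, 26, 44 and 28 UMIs in that library. All but C3, which had 3, had 0 member UMIs in control day 7, where their ratio comes from the pseudocount. Klk1, Wdfy4 and Fads2 had 21, 28 and 16 UMIs there in 4 barcodes each, with 13, 25 and 8 of them in 1 barcode, and 0 in control day 7. Rarres2 and Igfbp5 complete the list, with 8 and 7 UMIs in control day 7, and with 19 UMIs in 1 barcode and 3 UMIs in L-fuc day 7. Among the 10 lowest, Ccl1, Tnfrsf4, Penk and Ccr7 had 0 member UMIs in both libraries, against 1398, 780, 693 and 552 UMIs in the Cd3-holding barcodes of L-fuc day 7. S100a4, a calcium-binding protein of activated and migrating cells, had 3 and 2 member UMIs (26.0 and 17.5 CPM), against 327 CPM in control day 7. Ccl5, a chemokine of activated T and NK cells, was the most abundant of the 10: it was found in 24 of 42 and 12 of 25 members, at 321 and 342 CPM, against 2256 CPM in control day 7, and its log2 ratios were -2.78 and -3.58. Gmfg, S100a9, Xcl1 and Lat were the others, with mean log2 ratios of -3.61, -3.42, -3.08 and -3.06.

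The rule set members apart from macrophage barcodes by lymphocyte genes and C1q, and the ratios between them describe that choice. Of 11600 genes tested, 3902 (33.6%) were at least 2-fold higher, of which 1086 had no member UMI in 1 library or both and 393 had none in either, and 303 (2.61%) lower, and among genes with 10 member UMIs in each library 358 of 1455 (24.6%) were higher and 40 (2.75%) lower. The 10 highest were Clec3b, Mctp2, Ppp1r16b, Pi16, Atp1b1, Gm2682, Prf1, Ctla4, Txk and Klre1. Txk, a kinase of T and NK cells, was found in 12 of 42 and 11 of 25 members, at 173 and 184 CPM, against 3.79 CPM in macrophage barcodes of control day 7. Prf1, perforin, was found in 9 of 42 and 6 of 25 members, at 147 and 70.1 CPM, against 1.60 CPM in control day 7. Atp1b1, a sodium pump subunit, was at 165 and 298 CPM, with 9 of 19 and 13 of 34 UMIs in 1 barcode. All 21 T cell genes tested and all 9 NK cell genes tested were called higher, and 8 of 9 macrophage genes lower, Mertk being the exception. With 10 member UMIs in each library, 2 T cell genes (Lck and Il7r) and 2 NK cell genes (Gzma and Klrk1) were tested, all called higher. The 2 macrophage genes tested in that way, Apoe and Ctsb, were lower. The other calls rest on fewer member UMIs, and Trbc2 had none in control day 7, where its ratio comes from the pseudocount. Long lymphocyte genes were called higher in 17 of 20, and genes of at least 100 kb in 654 of 1415. With 10 member UMIs in each library it was 8 of 8 and 99 of 155, beside 24.6% of all genes.

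Between the treatments at day 7 the members were compared as 1 library against 1 library. The share of kept barcodes that were members was 0.218% in control, with an exact interval of 0.157 to 0.294%, and 0.204% in L-fuc, with 0.132 to 0.301%, a ratio of 0.937 (exact interval 0.547 to 1.57). Of kept barcodes with at least 3 Ptprc UMIs, members were 2.69% in control and 1.16% in L-fuc, a ratio of 0.430 (0.251 to 0.722), so that the result rests on the denominator. At day 21 the shares of kept barcodes were 0.606% in control, with an interval of 0.313 to 1.06%, and 1.05% in L-fuc, with 0.561 to 1.79%, a ratio of 1.74 (0.730 to 4.16), and that over barcodes with Ptprc was 1.92 (0.809 to 4.61). In control day 0 the share was 1.08% (0.644 to 1.71%).

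Of 1175 genes with at least 30 UMIs in the members of day 7, 130 (11.1%) were at least 2-fold higher in L-fuc and 129 (11%) at least 2-fold lower. The 5 highest were Plbd1, Cox6a2, Plac8, Dcn and Clec3b. Cox6a2 had 56 UMIs in 4 of 25 L-fuc members and 0 in control, and Plac8, found in pDC and monocytes among others, had 93 UMIs in 7 members and 1 UMI in control. Plbd1 came with 63 of its 65 UMIs from 1 barcode, and Dcn and Clec3b came wholly from 1 barcode. The 5 lowest were Mki67, Snorc, Rhox5, Emp1 and Hist1h1e. Mki67, a marker of cycling cells, had 31 UMIs in 12 of 42 control members and 0 in L-fuc. Snorc had 31 of its 33 UMIs in 1 barcode, while Rhox5, a homeobox gene, had 32 UMIs in 14 members, Emp1, a membrane protein, 45 UMIs in 20 and Hist1h1e, a linker histone, 58 UMIs in 25, against 1, 2 and 4 UMIs in L-fuc. The same ratios in other classes are not given here, and the libraries differed as a whole. The tumor list reached 10 UMIs in 52.2% of kept barcodes of control day 7 and in 26.1% of those of L-fuc day 7. Among members that reached no list, Sparc was found in 26 of 34 in control and in 4 of 13 in L-fuc. The part of RNA from other cells in these ratios was not tested. The summed Malat1 levels had a ratio of 1.06 (0.994 to 1.13), but the medians over members were 16517 CPM in control and 27778 CPM in L-fuc, and the summed levels at 1000 to 3000 UMIs were 20581 and 37444 CPM. Ets1, on whose UMIs the members were chosen, was at 745 CPM in control and 386 CPM in L-fuc.

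The limits of the rule cut through a continuous range. Of the members, 34 had exactly 3 Ptprc UMIs, with a median depth of 1836 UMIs and Malat1 at 9117 CPM, and 48 barcodes that met every other limit had 2, with 2066 UMIs and 11138 CPM. At exactly 3 UMIs of the 4 lymphocyte genes there were 39 members, at 13730 CPM of Malat1, and 82 barcodes had 2 UMIs, at 18609 CPM. A single Cd3 UMI kept out 43 barcodes, of which 6 had a receptor and whose Malat1 was at 18966 CPM, and a single Nkg7 UMI kept out 46, at 14283 CPM and with 0 receptors. A C1q sum of 2 was found in 15 members and a sum of 3 kept out 9 barcodes. Libraries shared barcode sequences, 433 between control day 7 and L-fuc day 7 and 3 to 86 between other pairs, and no barcode was a member in both libraries of a pair.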

How the data were processed

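Per the labels, the authors sorted CD45+ cells, made droplet libraries and processed them with Cell Ranger 3.0 and Seurat 4.0 on mm10; the headers of the deposited matrices name Cell Ranger 7.1.0, and whether intronic reads were counted is not given in the sources used here. The authors deposited whole-number UMI counts per gene and barcode (14439185 at day 0, 119047810 for control and 88986101 for L-fuc at day 7, 21727157 for control and 16589803 for L-fuc at day 21), and UMI counts of receptor contigs, all of which are productive. Receptor barcodes (386, 949, 1084, 56 and 22, in the same order) were all found in the matching matrix. The members, gene lists and tests were chosen with earlier results of these data known. UMIs were summed per class and library. Gene spans were those of GENCODE vM21, found for 32158 of 32285 genes. Thinned shares are exact expectations for 500 UMIs. Shares have exact Clopper-Pearson and sums exact Poisson 95% intervals. Doublets were not removed; Scrublet (scanpy 1.11.5) was an alternative, as were other limits, spans, pseudocounts and libraries left out. The ratio step was tested on simulated data.

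Genes were named if they belonged to the rule or to a list, or were among the 10 highest and 10 lowest mean log2 ratios to Cd3-holding barcodes, the 10 highest to macrophage barcodes, or the 5 highest and 5 lowest ratios of L-fuc to control, with at least 30 UMIs and 1 direction in the libraries used. Immunoglobulin constant genes were chosen after their values were seen. Python 3.11.15, numpy 2.4.6, scipy 1.17.1 and pandas 2.3.3 were used. Some genes of the lists are not reported here.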

Additional observations from a re-analysis of the deposited data

Results flagged for a closer look

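The share of kept barcodes that were members was lower in L-fuc than in control at day 7 (ratio 0.937) and higher at day 21 (ratio 1.74). The directions were opposite, the difference between the days was not tested, and the exact interval of each of these ratios holds 1. Over kept barcodes with at least 3 Ptprc UMIs the ratio was 0.430 (0.251 to 0.722) at day 7 and 1.92 (0.809 to 4.61) at day 21. The groups behind the ratios differed in content. At least 10 UMIs of the plasma cell list were held by 10 of 13 members of L-fuc day 21 and 2 of 12 of control day 21. At day 7 that limit was reached by 0 of 42 members in control and 0 of 25 in L-fuc.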

How the results depend on the processing

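The share of kept barcodes that were members followed its limits. With at least 5 Ptprc UMIs it was 0.361% in control day 0 and 0.0829% in control day 7, and with at least 2 it was 0.352% in control day 7 and 0.302% in L-fuc day 7. With at least 5 UMIs of the 4 lymphocyte genes it was 0.482% in control day 0, 0.0829 and 0.0815% in control and L-fuc day 7 and 0.252% in control day 21, and without any C1q UMI 0.0933% in control day 7 and 0.303% in control day 21. Over barcodes with 3 Ptprc UMIs it was 4.43, 2.69, 1.16, 2.45 and 4.71% in the libraries in order of time, control first. The higher share of long genes in members than in Cd3-holding barcodes (1.99 points) kept its direction: 2.13 and 1.73 with an mt- limit of 20 or 5%, 1.65 and 2.81 with 2 or 5 Ptprc UMIs, 2.92 with 5 lymphocyte gene UMIs, 3.34 without C1q, 2.16 without the highest Scrublet scores, 3.92 and 0.729 for spans of 50 or 200 kb, 3.77 for medians and 2.39 at 1000 to 3000 UMIs. The difference in Malat1 (8591 CPM) was, in that order and without the spans, 9864, 7648, 7410, 13211, 11699, 11195, 9447, 13975 and 12727 CPM, and 6778 to 10403 CPM when either library was left out. Gene counts depended most on the settings. From 977 higher genes the count went to 2331 with a minimum of 10 UMIs, to 5124 with a pseudocount of 5, to 318 with one in proportion to the class totals, to 68 at 1000 to 3000 UMIs and to 53 with 10 member UMIs in each library, and was 713 to 2381 with 1 library. From 127 lower genes it went to 30, 624, 35 and 16 under the last 4 of those settings, and to 412 to 651 with 1 library. The difference in receptor share ranged from -64.2 to -28.4 points, the latter at 1000 to 3000 UMIs. The depth window, the member minimum, the proportional pseudocount, the trimmed lists and the use of all 5 libraries were chosen after seeing the data. No paired analysis was possible between conditions because each has 1 library, whereas classes of barcodes were paired within libraries in the receptor test. Depth limits shares of 12 to 42 barcodes, and causes were not tested.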
